A study of Mus musculus with 36 samples.

Results

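The cytosolic ribosomal protein genes were taken by symbol. A probe set counted where its annotation gave a single symbol of the form Rpl or Rps followed by a number, or Rplp0, Rplp1, Rplp2 or Rpsa, with pseudogene symbols ending in -ps and the Rps6 kinases left out, and each gene was read from its probe set with the highest mean over the 36 arrays. This gave 50 genes of 18193 with a single-symbol probe set. Of these, 43 name proteins of the ribosome itself (20 of the large subunit, 21 of the small subunit, and the stalk proteins Rplp0 and Rplp2). The other 7 symbols are Rpl22l1, Rpl39l, Rpl3l, Rpl7l1, Rps27l and Rps4l, which name related or tissue-restricted forms, and Rps19bp1, whose product binds Rps19 and is not a ribosomal protein. The filter on dim probe sets (a log2 value over 4 in at least 3 arrays) left 47 of the 50 among 9549 tested genes. A further 31 ribosomal protein genes, Rpl5 and Rplp1 among them, were named only by probe sets that carry several symbols and do not count here.

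The samples were NIH-3T3 cells, an established mouse fibroblast line, which received fresh medium with mock, with 100 U/ml IFNalpha (a type I interferon) or with 100 U/ml IFNgamma (the type II interferon). 4-thiouridine (4sU), a nucleoside that living cells build into RNA, was present in 1 of 4 windows counted from the medium change: 0-30, 30-60 or 150-180 min at 500 µM, or 0-60 min at 200 µM. The newly transcribed RNA was hybridised to Affymetrix arrays, 3 for each of the 12 groups. Mock cells also had their medium changed, and no cells without a medium change or without 4sU are among the groups. The labels number the arrays of a group but do not say that they came from separate cultures, so every p-value here reflects array-to-array spread, which may be technical.

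Ribosomal proteins assemble with ribosomal RNA into the small subunit, which reads the mRNA, and the large subunit, which joins amino acids. Cells make them in nearly equal amounts, their genes are among the most transcribed, and their mRNAs begin with a stretch of pyrimidines (the 5′ terminal oligopyrimidine, or TOP, motif) that places their translation under the mTORC1 kinase. Several of their introns carry small nucleolar RNAs. Interferons act through STAT factors and are best known for raising antiviral and antigen-presentation genes, and Rpl13a is known for a role outside the ribosome in interferon-gamma-treated myeloid cells, where it takes part in translational silencing.

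The start-site sequences of some of the genes named in the results below are shown because the TOP motif is known for this family. Those of other genes named below, such as Rpl22, Rpl14 and Rplp0, are not shown. Not every RefSeq start used here carries such a pyrimidine stretch. Each line gives 30 bases, 15 before and 15 from the RefSeq start (GRCm38.p6), 5′ to 3′ on the gene's strand. Capitals mark the longest run of C and T that touches the 5 bases on either side of the start. Where RefSeq has several starts for a gene (Rps24 has 2 and Rps19 has 3) the one with the longest run is shown.
Rpl7a: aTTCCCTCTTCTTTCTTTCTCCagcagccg
Rpl35: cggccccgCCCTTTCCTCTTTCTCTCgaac
Rps6: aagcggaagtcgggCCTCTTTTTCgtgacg
Rplp2: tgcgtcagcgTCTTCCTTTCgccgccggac
Rps18: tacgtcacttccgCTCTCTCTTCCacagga
Rps24: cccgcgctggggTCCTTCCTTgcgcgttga
Rps7: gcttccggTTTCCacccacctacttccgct
Rps25: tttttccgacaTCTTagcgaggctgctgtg
Rps19: tccgaaaTCTCgcgagactcgacgcccgac
Rpl7l1: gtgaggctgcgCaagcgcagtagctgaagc

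On the plus strand lie Rpl7a (chr2:26910792-26910821), Rplp2 (chr7:141447636-141447665), Rps24 (chr14:24490663-24490692), Rps25 (chr9:44407699-44407728) and Rps19 (chr7:24884577-24884606). On the minus strand lie Rpl35 (chr2:39005117-39005146), Rps6 (chr4:86857353-86857382), Rps18 (chr17:33955651-33955680), Rps7 (chr12:28635939-28635968) and Rpl7l1 (chr17:46782642-46782671). Rpl7a has the longest run of these, 21 bases, and Rpl7l1 has 1 base.

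Of the 50 genes, 44 had a promoter entry in the RefSeq table. A run of at least 6 C or T touching the start was present in 23 of the 44 (52.3%), against 23.1% of 17492 protein-coding genes, while the same search for G and A found 3 of 44 (6.82%) against 24.5%. In the 300 bases around the start (250 before and 50 after), searched on both strands, CCGGAAG (a core that ETS-family factors bind) was found in 21 of 44 (47.7%) against 12.9% of all. AAGATGG (the core of the YY1 site) was found in 18.2% against 7.18%, and TATAAA in 13.6% against 14.8%. A pair of GAAA copies with any 2 bases between them, a form of the interferon-stimulated response element, was found in 5 genes (Rpl27a, Rpl38, Rpl4, Rps19 and Rps7), 11.4% against 3.94%, and TTCNNNGAA, a form of the STAT site that reads the same on both strands, in Rpl35, Rpl4 and Rplp0, 6.82% against 8.92%. None of these motifs contains another, and a match is only a match of letters.

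Values are log2 intensities minus the median of the array, so 1 unit is a doubling relative to that median. Arrays give no counts, and the 3 arrays per group limit the precision. Within groups the arrays correlated at 0.90 to 0.99 over kept probe sets and none was a duplicate. Mock 0-60 min array 1 stood apart: its Gapdh 3′ probe set exceeded the 5′ one by 2.67, against -0.31 and -0.30 in the other mock arrays of that window. Values without it stand beside the 0-60 min results that it moved. All 9 fibroblast markers passed the filter (median deposited log2 11.75), while 0 of 5 macrophage, 0 of 4 epithelial and 0 of 4 endothelial markers did. The interferons acted in every window: Irf1, a transcription factor gene induced by both interferons, was 2.14 ± 0.19 (SE) higher with IFNalpha and 5.13 ± 0.19 higher with IFNgamma at 0-30 min (limma adjusted p = 3.1e-09 and 3.8e-19).

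The 47 genes were read at high signal in nearly all cases. Their deposited log2 means ran from 4.23 (Rpl39) to 13.29 (Rps29), with a median of 11.86. On each array the median over the 47 genes lay 4.49 to 5.30 above the median over all tested genes. In mock cells this median stood at 9.29, 9.11 and 8.94 over the array median at 0-30 min, at 8.92, 8.55 and 8.67 at 0-60 min, at 8.35, 8.22 and 8.23 at 30-60 min, and at 9.13, 9.12 and 8.94 at 150-180 min. The 30-60 min arrays were the lowest in every treatment and did not overlap with those of 0-30 or 150-180 min. Within each window the mock, IFNalpha and IFNgamma arrays overlapped. The deposited values cannot tell fewer labelled cells from less labelled RNA per cell.

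**Figure D1:**
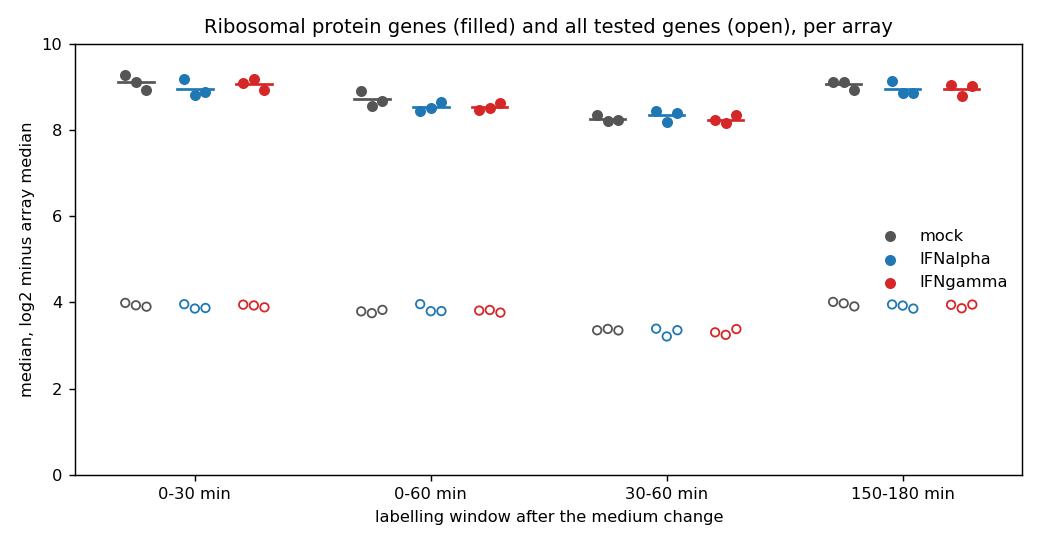
Median over the 47 ribosomal protein genes (filled points) and over all 9549 tested genes (open points) on each array, as log2 minus the array median, by labelling window and treatment; bars are means of 3 arrays. The filled points lie between 8.16 and 8.44 at 30-60 min and between 8.80 and 9.29 at 0-30 and 150-180 min, the open points fall at 30-60 min too, and the treatments overlap in every window.

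The first question was whether either interferon changed the transcription of these genes. At an adjusted p under 0.05 (limma, Benjamini-Hochberg over all genes), 0 of 47 genes differed from mock at 0-30 min with IFNalpha (0.377% of all genes called) or IFNgamma (0.712%), and none of the 47 had an unadjusted p under 0.05. The same count of 0 was found for IFNalpha at 0-60 min (1.76% of all genes called, 7 of the 47 with an unadjusted p under 0.05), for IFNalpha and IFNgamma at 30-60 min (2.46% and 6.04%, none unadjusted) and at 150-180 min (2.63% and 5.81%, 0 and 1 unadjusted). IFNgamma at 0-60 min gave 1 call, Rps25 (6.52% of all genes called, 4 of the 47 unadjusted). With array weights, whose estimation stopped before it converged, 3 genes were called higher with IFNalpha at 30-60 min (7.1% of all genes higher). At 150-180 min 16 and 15 were then lower with IFNalpha and IFNgamma (26.1% and 27% of all genes lower).

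The intervals bound what could have been missed. The 95% interval of the difference from mock stayed within 2-fold for 46 or 47 of the 47 genes in each of the 8 comparisons, and within 1.5-fold for 34 to 46. With IFNalpha the median difference over the 47 genes was -0.10, -0.13, 0.02 and -0.09 at 0-30, 0-60, 30-60 and 150-180 min, beside -0.05, 0.02, -0.07 and -0.11 over all genes. With IFNgamma it was -0.06, -0.13, -0.02 and -0.10, beside -0.03, -0.02, -0.09 and -0.11. Without mock 0-60 min array 1 the medians at 0-60 min were -0.11 with IFNalpha (all genes 0.01) and -0.04 with IFNgamma (all genes -0.02).

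**Figure D2:**
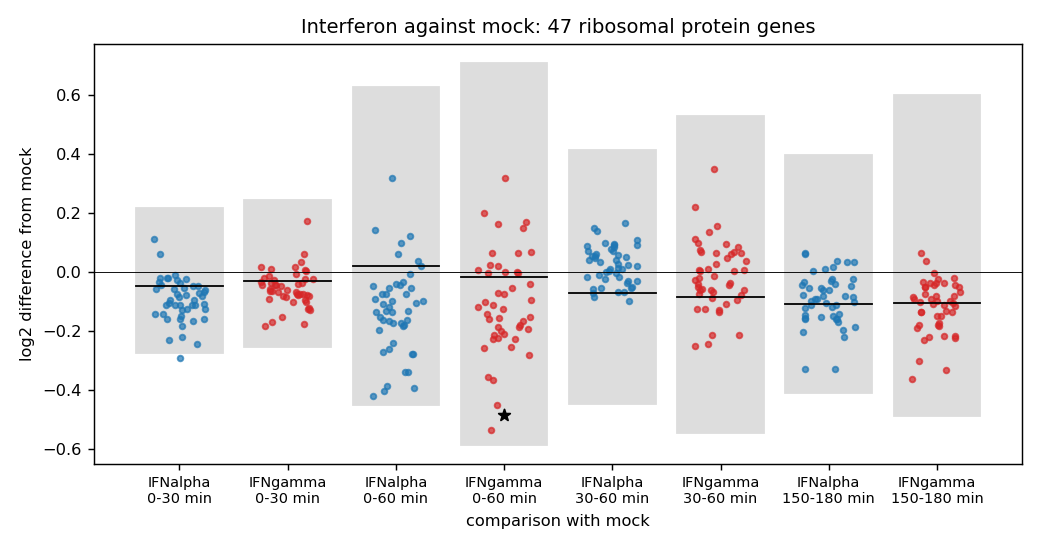
Log2 difference from mock of each of the 47 genes (points) in the 8 interferon comparisons, with the 5th to 95th percentile of all tested genes (grey) and their median (line); the star is the 1 called gene, Rps25 with IFNgamma at 0-60 min. The points lie between -0.54 and 0.35, inside or near the grey range, where the spread is widest at 0-60 min.

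Stalk and scaffold proteins with roles beyond the ribosome gave no call. Rplp0, the stalk base and a common reference gene in quantitative PCR, was 10.46, 10.22 and 10.16 in mock and 10.30, 10.32 and 10.18 in IFNgamma at 0-30 min, and the arrays interleaved. Its difference from mock ran from -0.13 to 0.02 ± 0.11 (SE) over the 8 comparisons, and the smallest adjusted p was 0.70 (limma). Rplp2, its partner, ran from -0.34 to 0.10 ± 0.16, where the lowest value, with IFNalpha at 0-60 min, was -0.16 without mock array 1. Rpsa, the laminin receptor as well as a small-subunit protein, had the lowest value of any of the 47, -0.54 ± 0.18 with IFNgamma at 0-60 min (adjusted p = 0.079, limma). Its mock arrays in that window were 9.62, 8.55 and 8.45 against 8.34, 8.32 and 8.34, so the size rests on mock array 1, without which it was -0.16 (adjusted p = 0.70, limma).

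Among the large-subunit proteins, Rpl11, which with 5S RNA can restrain Mdm2, differed from mock by -0.16 to 0.01 ± 0.17 over the 8 comparisons. Rpl13a, the protein tied to interferon-gamma-dependent translational silencing in myeloid cells, differed by -0.18 to -0.02 ± 0.12, with a smallest adjusted p of 0.49 (limma). At 150-180 min Rpl13a stood at 10.33, 10.33 and 10.14 in mock and at 10.18, 10.06 and 10.24 with IFNgamma, and the groups overlapped. Rpl22 ran from -0.24 to -0.02 ± 0.12 and its paralog Rpl22l1 from -0.14 to 0.32 ± 0.15. Without mock array 1 the 0-60 min values of Rpl22l1 were 0.05 with either interferon in place of 0.32.

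Among the small-subunit proteins, Rps6, the substrate of the S6 kinases, differed from mock by -0.12 to 0.09 ± 0.15, and Rps3, which also has DNA-repair activity, by -0.28 to 0.07 ± 0.16. The lowest Rps3 value, with IFNalpha at 0-60 min, was -0.02 without mock array 1. Rps19, the gene most often mutated in Diamond-Blackfan anaemia, differed by -0.13 to 0.09 ± 0.11. Its 0-30 min arrays read 9.54, 9.42 and 9.24 in mock, 9.48, 9.05 and 9.29 with IFNalpha and 9.42, 9.34 and 9.21 with IFNgamma, which overlap. Of the paralogs, Rps27l, a p53 target, ran from -0.30 to -0.04 ± 0.16, Rpl7l1 from -0.25 to 0.06 ± 0.13 and Rpl39l from -0.20 to 0.09 ± 0.11, and Rps19bp1 ran from -0.45 to 0.01 ± 0.22, its lowest value, with IFNgamma at 0-60 min, being -0.21 without mock array 1. None of these was called.

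Rps25, a small-subunit protein that some viral internal ribosome entry sites need, was the only call against mock. At 0-60 min it read 8.36, 7.56 and 7.45 in mock, 7.23, 7.42 and 7.51 with IFNalpha and 7.05, 7.36 and 7.50 with IFNgamma. Mock array 1 was high and the other mock arrays overlapped with the treated ones. The difference was -0.48 ± 0.15 with IFNgamma (adjusted p = 0.045, limma) and -0.40 ± 0.15 with IFNalpha (adjusted p = 0.25, limma). Without mock array 1 the IFNgamma value was -0.20 (adjusted p = 0.47, limma), and without IFNgamma array 1 or 2 the call was also lost (adjusted p = 0.21 and 0.088, limma). On the 0-60 min arrays alone its adjusted p was 0.64 (limma). Another kept probe set that names Rps25 together with further symbols disagreed, with a difference of -0.07 with IFNgamma (adjusted p = 0.77, limma over kept probe sets).

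The arrays of a number deviate together in the 0-60 min window, and with that number as a block the counts there rose to 1 for IFNalpha (4.50% of all genes called) and 4 for IFNgamma (19.5%). All were lower. They were Rpl35 at -0.28 with IFNalpha, and Rpl38 at -0.26, Rps19bp1 at -0.45, Rps25 at -0.48 and Rpsa at -0.54 with IFNgamma (adjusted p from 0.015 to 0.049, limma with the replicate block). Without mock array 1 and without the block these values were -0.13, -0.23, -0.21, -0.20 and -0.16. Leaving out mock array 2 or 3 raised the unblocked counts to 3 and 2 for IFNalpha (7.08% and 7.13% of all genes called) and to 4 and 3 for IFNgamma (16.4% and 15.4%). Without mock array 1 they were 0 and 0 (1.61% and 4.91%).

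At 150-180 min the genes leaned slightly below mock, as all genes did. The difference was negative for 39 of 47 genes with IFNalpha and 45 of 47 with IFNgamma, and for 6814 and 6435 of the 9549 genes. Rps7, a small-subunit protein that also binds Mdm2, was 10.13, 10.15 and 10.10 in mock and 10.09, 9.85 and 9.78 with IFNgamma. All its treated arrays lay below the mock ones, and the difference was -0.22 ± 0.11 (adjusted p = 0.36, limma). In all, 9 genes with IFNalpha and 10 with IFNgamma had every treated array below every mock array, where 24.1% and 30.0% of all genes had groups that did not overlap in either direction.

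The change of an interferon's effect from one 30 min window to the next was tested as a difference of differences, and 0 of 47 genes were called in any of the 4 tests. The shares of all genes called were 1.23% and 0.492% for IFNalpha (30-60 against 0-30 min, and 150-180 against 30-60 min) and 1.50% and 1.84% for IFNgamma. The gene nearest to a call was Rps27, whose IFNgamma effect fell by 0.68 ± 0.32 from 30-60 to 150-180 min (adjusted p = 0.53, limma), the 1 gene of the 47 with an unadjusted p under 0.05 in these tests. With array weights 4 genes were called higher in the earlier IFNalpha test and 11 lower in the later (4.56% and 13% of all genes). In the later IFNgamma test 8 were called lower (12.1%).

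The second question was how the genes differed between labelling windows, which the design allows within each treatment. From 0-30 to 30-60 min the ribosomal protein genes fell. In mock cells 44 of 47 were lower and none higher (52.7% of all genes lower), with IFNalpha 39 (53.5%) and with IFNgamma 41 (55.1%). The median over the 47 was -0.70, -0.62 and -0.72 in the 3 treatments, beside -0.53, -0.55 and -0.57 over all genes. Centred on the median of kept probe sets instead of all probe sets, the counts lower were 37, 29 and 34 (43.2%, 40.0% and 44.0% of all genes), the medians -0.54, -0.40 and -0.52, and the all-gene medians -0.38, -0.32 and -0.37, with Rpl39 then called higher under IFNalpha, by 0.34. The hybridisation control probe sets averaged 10.07 to 11.40 on the 30-60 min arrays and 9.67 to 9.92 on the 0-30 min arrays, and their part in the fall was not tested.

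In all 3 treatments 38 genes were lower (44.4% of all genes), 27 of 47 with the other centring (33.1%), and 39 had all 9 of the 30-60 min arrays below all 9 of the 0-30 min arrays (44.5% of all genes). Rps19 fell most steadily, by 1.34, 1.16 and 1.17 ± 0.11 with mock, IFNalpha and IFNgamma (largest adjusted p 1.1e-09, limma). Its 30-60 min arrays read 8.18, 8.13 and 7.88 in mock, against the 0-30 min values given above, so no array of one window reached the other. Rpl22, whose 0-30 min mock arrays read 9.19, 9.11 and 8.83 and whose 30-60 min arrays read 7.87, 7.84 and 7.80, fell by 1.21, 0.98 and 1.10 ± 0.12. Of its other kept probe sets 1 fell as well (-1.01 in mock) and 1 was flat (-0.08 in mock, adjusted p = 0.73, limma over kept probe sets). Rpl14, with mock arrays at 4.23, 3.87 and 3.66 and then at 2.57, 2.58 and 2.36, fell by 1.42, 1.09 and 1.13 ± 0.22. Brighter several-symbol probe sets that name Rpl14 fell less, by 0.42 to 0.94 in mock. Rps9, Rpl6, Rpl39l, Rpsa, Rps24, Rpl27 and Rpl8 followed, each by at least 0.81 in every treatment.

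The genes not called lower in mock were Rps29 at -0.16, Rpl39 at -0.01 and Rpl27a at 0.23. Other kept probe sets of Rps29 disagreed and were lower in mock, at -0.31 and -0.69 (adjusted p = 0.040 and 8.1e-05, limma over kept probe sets). A several-symbol probe set that names Rpl27a disagreed with the one used here and was at -0.56 in mock, and the one that names Rpl39 gave 0.13 (adjusted p = 2.4e-05 and 0.35, limma over kept probe sets). Rps28, a small-subunit protein near the mRNA exit, was lower in mock by 0.25 but not called with the interferons (-0.19 and -0.16). Its other kept probe sets were at -0.44 and -0.33 in mock (adjusted p = 0.00072 and 0.0072, limma over kept probe sets). Over the 9 arrays of each window Rps28 ran from 10.08 to 10.30 at 0-30 min and from 9.86 to 10.08 at 30-60 min, and Rps29 from 9.91 to 10.30 and from 9.93 to 10.15. Each gene's windows overlapped.

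**Figure D3:**
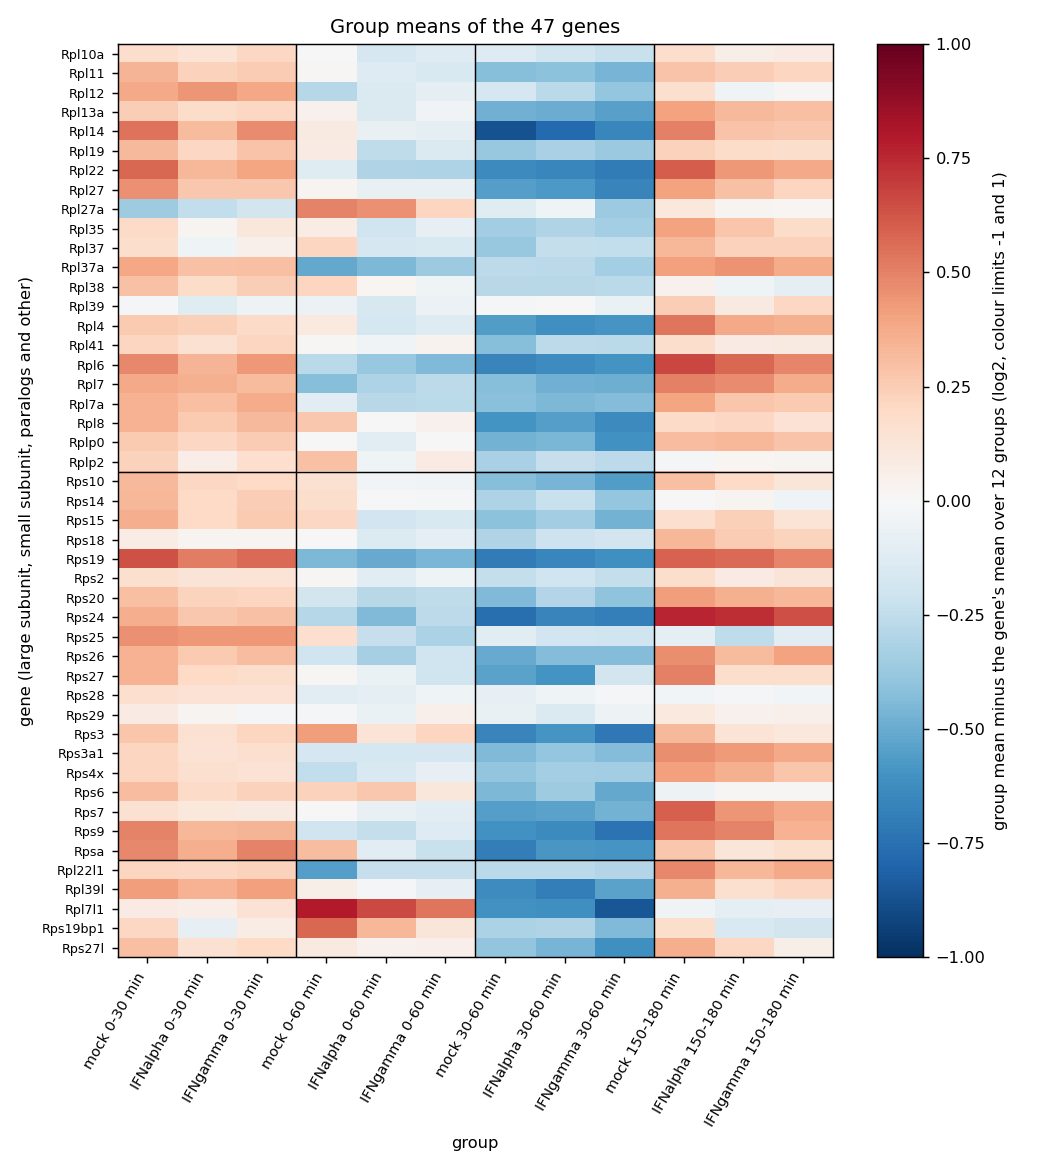
Mean of each of the 47 genes in each of the 12 groups, minus the gene's mean over the groups (log2, colour limits at -1 and 1), with the genes split into large subunit, small subunit and other symbols and the groups ordered by labelling window. The 30-60 min columns are blue for nearly all genes in all 3 treatments, the 0-60 min columns are mixed, and Rpl7l1 is highest at 0-60 min.

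From 30-60 to 150-180 min the genes rose again. In mock 39 of 47 were higher (54.8% of all genes), with IFNalpha 38 (53.8%) and with IFNgamma 38 (55.6%), none was lower, and the medians were 0.75, 0.66 and 0.68 beside 0.57, 0.56 and 0.58 over all genes. With the other centring 34, 28 and 28 were higher (46.7%, 40.7% and 43.2% of all genes) and the medians were 0.60, 0.43 and 0.47. In all 3 treatments 37 genes rose (45.3% of all genes), and 38 had all 9 late arrays above all 9 of the 30-60 min arrays (42.2%). In mock the _at probe set of Rps24 did not rise (0.05, adjusted p = 0.81, limma). Over all 9 arrays of a window its deposited mean was 10.74 at 30-60 min and 11.01 at 150-180 min. Ordered by the smallest rise over the treatments, Rps24 came first with 1.52, 1.40 and 1.33 ± 0.11, then Rps19 (1.29, 1.22 and 1.10), Rpl6, Rps9 and Rpl22, of which Rpl22 again had a probe set that did not rise (-0.32 in mock). In turn Rpl4, Rpl14, Rpl27, Rps7 and Rpl7 rose by at least 0.85 in every treatment. The probe set used for Rps25 did not rise: it differed by 0.02, -0.06 and 0.09, with 7.51, 7.45 and 7.58 at 30-60 min and 7.61, 7.50 and 7.48 at 150-180 min in mock. The several-symbol probe set that names Rps25 disagreed and rose by 0.92, 0.87 and 0.84.

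**Figure D4:**
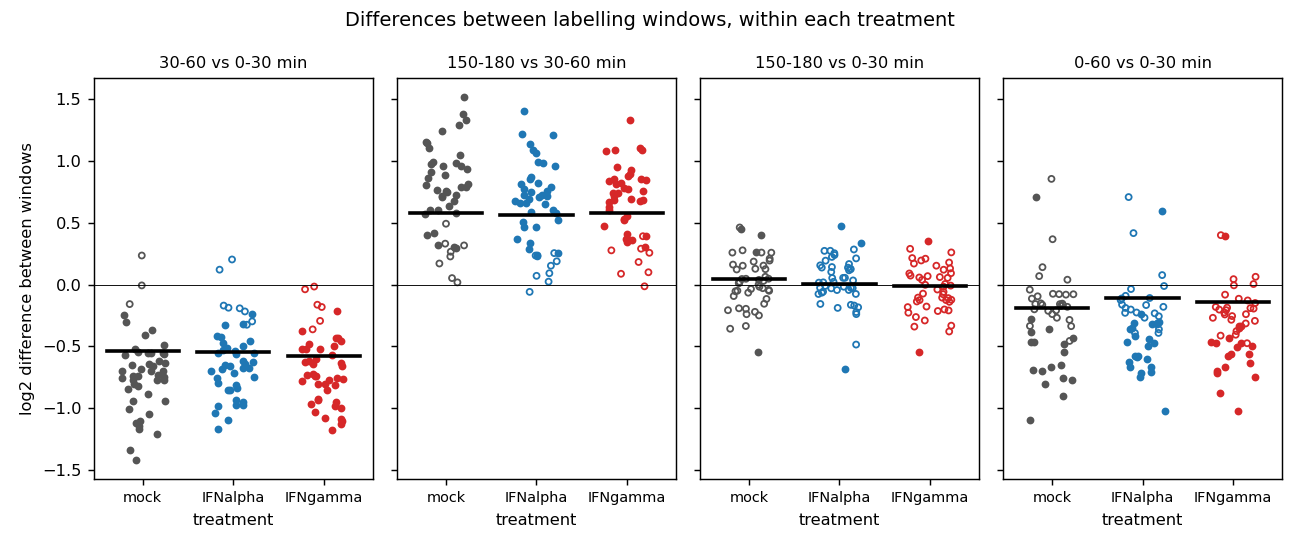
Log2 difference between labelling windows for each of the 47 genes within mock, IFNalpha and IFNgamma (filled, adjusted p under 0.05; open, not called), with the median of all tested genes as a line. Nearly all points lie below 0 for 30-60 against 0-30 min and above 0 for 150-180 against 30-60 min, while those of 150-180 against 0-30 min lie on both sides of 0.

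Set directly against each other, the 0-30 and 150-180 min windows gave medians of 0.02, 0.02 and -0.04 for the 47 genes, beside 0.04, 0.00 and -0.01 over all genes. In mock 3 genes were higher and 1 lower (4.81% and 4.84% of all genes), with IFNalpha 2 and 1 (5.31% and 5.18%) and with IFNgamma 1 and 1 (6.12% and 5.84%). Rps25 was the lower gene in all 3 treatments (2.54% of all genes were lower in all 3). It read 8.01, 8.06 and 8.15 in mock at 0-30 min against the 7.61, 7.50 and 7.48 above. No late array reached an early one, and the difference was -0.55, -0.68 and -0.54 ± 0.15 (adjusted p = 0.016, 0.0018 and 0.013, limma). The mock call was lost without mock 0-30 min array 3 or mock 150-180 min array 2 or 3 (adjusted p from 0.054 to 0.076, limma), and the IFNgamma call without array 2 of either window (0.068 and 0.091). The several-symbol probe set that names Rps25 was not lower here, at 0.09, 0.16 and 0.02 (adjusted p = 0.70, 0.44 and 0.95, limma over kept probe sets).

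Rps24, which is mutated in some Diamond-Blackfan anaemia families, was called higher at 150-180 min in all 3 treatments (1.25% of all genes), by 0.40, 0.47 and 0.35 ± 0.11 (adjusted p = 0.020, 0.0044 and 0.035, limma). In mock it read 9.44, 9.58 and 9.48 at 0-30 min and 10.04, 9.85 and 9.80 at 150-180 min, and the groups did not overlap. This gene has several probe sets that disagree. Its 4 kept _x_at sets, a class that may match more than one transcript, were 0.40 to 0.63 higher in mock. Its _at set was 0.05 higher in mock, -0.02 with IFNalpha and 0.03 with IFNgamma. In mock the _at set was also flat from 0-30 to 30-60 min (-0.00). Over the arrays of all 3 treatments its deposited mean was lower at 30-60 min than at 0-30 min, so the flat step holds for mock only. The IFNgamma call was lost with each of the 6 arrays left out in turn (adjusted p from 0.053 to 0.13, limma) and with the other centring (0.056), and the mock call without mock 0-30 min array 1 or 3 or mock 150-180 min array 1 (0.073 to 0.14).

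Rps7 was 0.45 ± 0.11 higher at 150-180 min in mock (adjusted p = 0.0058, limma), 0.34 with IFNalpha (0.039) and 0.29 with IFNgamma (not called). Its second probe set gave 0.16 in mock and was not called, and the IFNalpha call was lost on leaving out any array but IFNalpha 0-30 min array 3. Rps18, another small-subunit protein, was 0.26 ± 0.08 higher in mock (adjusted p = 0.034, limma), a call that ended with the other centring (0.058) and without mock 0-30 min array 2 or 3 or mock 150-180 min array 1 or 2. Other kept probe sets of Rps18 were 0.11 to 0.71 higher in mock, and none was called. These counts also depended on which arrays set the error. With the 0-30 and 150-180 min arrays alone, 11, 7 and 9 genes were called (29.6%, 27.7% and 30.1% of all genes). Rps24, Rps7, Rps18 and Rps3a1 were then higher in all 3 treatments and Rps25 and Rpl12 lower, Rpl12 by 0.22, 0.48 and 0.38. Several-symbol probe sets that name Rpl12 disagreed, at 0.07 and 0.30 in mock (adjusted p = 0.86 and 0.17, limma over kept probe sets).

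**Figure D5:**
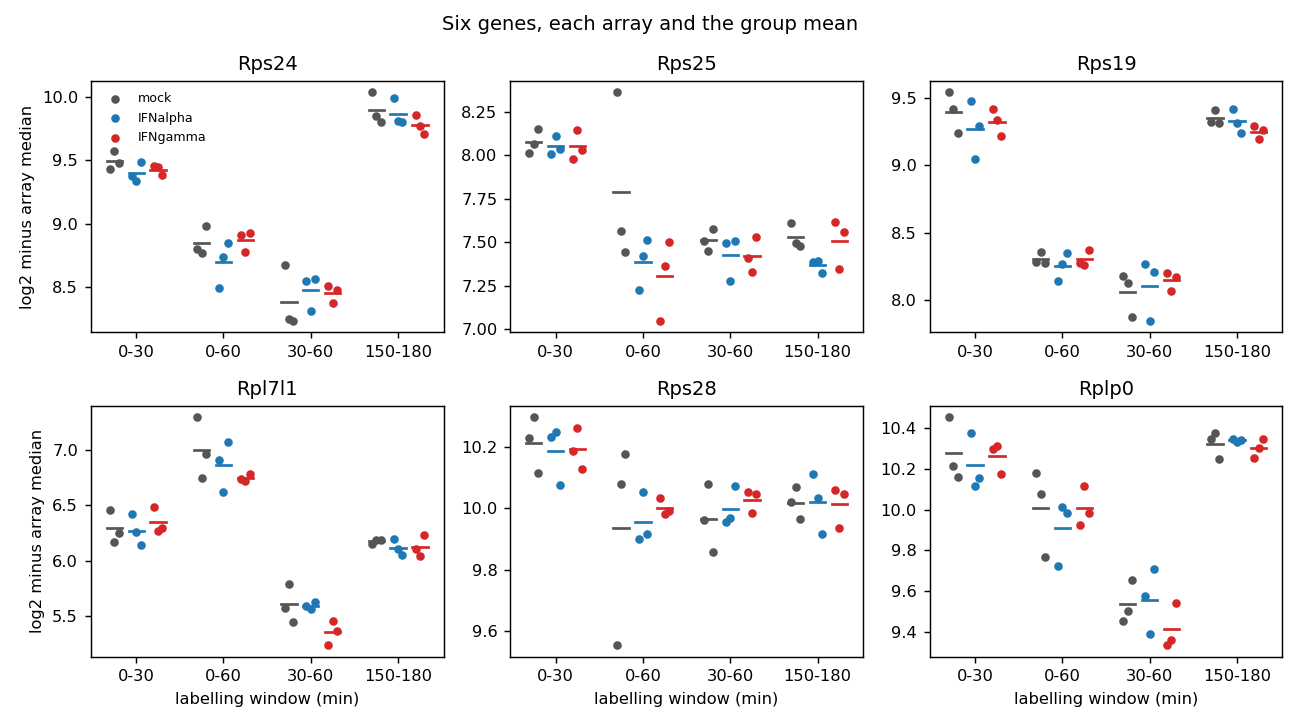
Values of 6 genes on every array (points, log2 minus the array median, 3 arrays per group) with group means (bars), by labelling window in minutes and treatment. Rps19 and Rplp0 dip at 30-60 min and return, Rps25 drops after 0-30 min and stays low apart from mock 0-60 min array 1 at 8.36, Rpl7l1 is highest at 0-60 min, and Rps28 spans 9.55 to 10.30.

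The 0-60 min window differs from 0-30 min in both length and 4sU dose, and these cannot be told apart. With 0-30 min as the base, 17 genes were lower and 1 higher in mock (26.9% and 10.2% of all genes), 24 and 1 with IFNalpha (22.2% and 12.9%) and 19 and 1 with IFNgamma (25.5% and 11.3%). The medians were -0.21, -0.31 and -0.31 beside -0.19, -0.11 and -0.14 over all genes. With the other centring the mock median was 0.01 (all genes 0.04), and the counts were 10 lower and 3 higher in mock (16.4% and 19.3% of all genes), 12 and 1 with IFNalpha (17.3% and 17.0%) and 11 and 1 with IFNgamma (17.9% and 17.2%), so the direction of the mock median depends on the scaling. Without mock 0-60 min array 1 the mock median was -0.32 beside -0.17 over all genes, and 24 genes were lower and 1 higher (27.4% of all genes lower, 39.4% called in either direction). Without array 1 of the IFNalpha 0-30 min window 12 were lower and 1 higher (17.6% and 11.8% of all genes), and without array 1 of its 0-60 min window 13 and 1 (21.8% and 11.3%).

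Genes lower at 0-60 min in all 3 treatments numbered 14 (15.5% of all genes), 7 with the other centring (9.72%). Rps19 had the largest fall, 1.09, 1.02 and 1.02 ± 0.11. It read 8.28, 8.36 and 8.28 in mock at 0-60 min, below every 0-30 min array. Rpl6, Rpl37a and Rpl22, all of the large subunit, were lower by at least 0.63 in every treatment. Rpl7, Rps24, Rps26, Rpl12, Rps20 and Rpl7a were lower by at least 0.46. Without mock 0-60 min array 1 each of these genes was still called in mock, where Rpl12 moved from -0.67 to -0.41 and Rpl7 from -0.81 to -0.58. Some other kept probe sets of these genes were not called in mock (adjusted p from 0.11 to 0.72, limma over kept probe sets). They were at -0.30 for Rpl37a, -0.37 and -0.15 for Rpl22, -0.16 for Rps24, and -0.21, -0.20 and -0.48 for Rps20. A further Rpl37a probe set was called at -0.65, and the other kept _x_at sets of Rps24 were called at -0.57 to -0.66. Rps9 had probe sets that were called in opposite directions in this comparison in mock and with IFNalpha, and so did Rpl35 between 0-30 and 150-180 min in mock.

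Rpl7l1, a paralog of Rpl7 that acts in ribosome assembly, was the gene called higher at 0-60 min in all 3 treatments (5.50% of all genes), by 0.71, 0.59 and 0.39 ± 0.13 (adjusted p = 7.7e-05, 0.00065 and 0.017, limma), under both centrings. It read 6.46, 6.17 and 6.25 at 0-30 min and 7.29, 6.75 and 6.96 at 0-60 min in mock, and the windows did not overlap. Without mock 0-60 min array 1 the mock value was 0.56 (adjusted p = 0.00069, limma). The IFNgamma call ended without IFNgamma 0-30 min array 2 or 3 or 0-60 min array 3 (adjusted p from 0.051 to 0.069, limma). Other kept probe sets of Rpl7l1 were 0.47 and 0.25 higher in mock and not called (adjusted p = 0.19 and 0.31, limma over kept probe sets). Rpl7l1 had the largest range of group means of the 47 genes, 1.64, followed by Rps24 with 1.52 and Rpl14 with 1.42. Rps29 (0.24), Rps28 (0.28) and Rpl39 (0.40) had the smallest, and Rpl39 lay near the filter, above it on 34 of 36 arrays.

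By role, from 0-30 to 30-60 min in mock, 18 of 20 large-subunit genes (median -0.71), 19 of 20 small-subunit genes (-0.74), both stalk genes and all 5 tested paralogs and other symbols were lower, beside 52.7% of all genes. The groups were not tested against each other. The genes tied to Diamond-Blackfan anaemia were lower in 8 of 9 cases (-0.77) and the hosts of small nucleolar RNAs in 11 of 12 (-0.69). Against mock, where the spread was widest (0-60 min), the large- and small-subunit medians were -0.16 and -0.11 with IFNalpha and -0.16 and -0.08 with IFNgamma. Without mock 0-60 min array 1 they were -0.11 and -0.10, and -0.04 and -0.03.

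Other genes of the same pathway were taken from lists. Of 16 tested genes for other TOP mRNAs and translation factors, 12 were lower and 1 higher from 0-30 to 30-60 min in mock, and of 76 mitochondrial ribosomal proteins 72 were lower, with a median of -1.03, beside 52.7% of all genes lower and a median of -0.53. Of 20 genes of the mTORC1, S6 kinase and Myc pathways 10 were lower, and of 39 ribosome biogenesis factors 25 were lower and 2 higher (-0.55). At 150-180 against 0-30 min 10 of the 39 biogenesis factors were lower in mock, 8 with IFNalpha and 11 (with 1 higher) with IFNgamma, beside 4.84%, 5.18% and 5.84% of all genes lower, and Bop1, which acts in large-subunit assembly, was lower by 1.66, 1.62 and 1.71 ± 0.29. The difference between the lists was not tested.

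Against mock these lists gave few calls. Rrp9, a U3 small nucleolar ribonucleoprotein, was 1.03 ± 0.29 higher with IFNgamma at 30-60 min (adjusted p = 0.024, limma). Sdad1, a large-subunit assembly factor, was 0.59 and 0.56 ± 0.17 higher with IFNalpha and IFNgamma at 150-180 min (0.046 and 0.040). Myc, a transcription factor that acts on ribosome biogenesis genes, was lower with IFNgamma, by 0.66 at 0-60 min and 0.69 ± 0.21 at 30-60 min (0.048 and 0.036), and Mrps6 of the mitochondrial ribosome by 0.64 ± 0.19 at 0-60 min (0.040). Both 0-60 min calls were lost without mock array 1, where Myc was at -0.61 and Mrps6 at -0.39 (adjusted p = 0.15 and 0.34, limma). The 16 tested genes of the TOP mRNA and translation factor list gave 0 calls against mock.

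The filter left out Rpl3l, known from heart and skeletal muscle, Rps4l and Rps16. Their deposited log2 means were 2.64, 2.32 and 2.19, below the array median, and no array passed 4. Rps16 is a core protein of the small subunit, and its single-symbol probe set gave no level here. Of the 47 representative probe sets 14 end in _x_at and 2 in _s_at, classes that may match several transcripts, and 24 of the 50 genes had more than 1 probe set. Ribosomal protein genes have many processed copies in the genome, so values from such probe sets are uncertain.

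Within groups the 47 genes tended to deviate together. Over the 36 arrays, after the group means were removed, the median correlation between pairs of the genes was 0.27 and 77.9% of pairs lay above 0, beside 0.04 and 54.6% for 1910 genes taken at even steps from all tested genes. All pairs share the same arrays and their scaling, so these values describe the arrays as well as the genes.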

How the data were processed

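The deposited values are log2 intensities for 45101 probe sets on 36 arrays. The submitters' processing notes name GCRMA as the tool with which the authors made these log2 values, without a version. No column lacked a sample. Probe sets were named from the series' own annotation: a single symbol was given for 34945, several for 932 and none for 9160, and 64 controls were dropped. Each array's median (3.13 to 3.27) was subtracted. Probe sets over log2 4 in at least 3 arrays were kept (21874), and each gene was represented by its highest-mean single-symbol probe set, which left 9549 genes. The model, in limma 3.58.1 under R 4.3.3, had 12 group means over the 36 arrays, by lmFit and then eBayes with trend (24 residual and 7.0 prior degrees of freedom). Limma's test is two-sided. The 24 comparisons (8 interferon against mock, 12 between windows, 4 changes of a response) used Benjamini-Hochberg adjusted p under 0.05 over all tested genes. Errors beside differences are standard errors, n = 3 arrays per group. The procedure was tested on simulated data.

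The members, gene lists and comparisons were chosen with earlier results of these data known. Named were a fixed panel of members against mock, the 5 largest called changes each way, up to 10 members called alike in all 3 treatments, the extremes of range, members under the filter, and up to 4 called genes per other list. Rps27a and Rpl36al had no single-symbol probe set. The lists were the subunits, stalk, Diamond-Blackfan anaemia genes, small nucleolar RNA hosts, TOP mRNAs and translation factors, ribosome biogenesis, mTORC1, S6 kinase and Myc, mitochondrial ribosomal proteins, and cell type markers.

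Array numbers were checked for pairing: deviations of same-numbered arrays correlated above 0.1 in 9 of 9 pairs at 0-30, 0-60 and 30-60 min and in 7 of 9 at 150-180 min. The main model has no term for the number, so its p-values ignore this pairing. An alternative fit used the number as a block within every window. The labels do not state what the number means. Alternatives were other centring, quantile normalization, other filters, log2 after adding 16, all probe sets of a gene, arrays of the compared windows only, no trend, array weights, the replicate block and dropping each array in turn. Added once the data had been seen: mock 0-60 min array 1 dropped from every comparison, and no _x_at or _s_at probe sets.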

Additional observations from a re-analysis of the deposited data

How the results depend on the processing

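Of the counts of called genes under the alternatives other than leaving out an array of the compared groups, 304 stayed within 1.5 times the main count and 29 moved. Centred on kept probe sets, 1 gene was called with IFNgamma at 150-180 against 0-30 min, and 13 and 12 with IFNalpha and IFNgamma at 0-60 against 0-30 min. Of all tested genes 1173, 3270 and 3355 were called in these. The medians moved with that centring to -0.54, -0.40 and -0.52 (30-60 against 0-30 min), 0.60, 0.43 and 0.47 (150-180 against 30-60 min), and 0.01 in mock and -0.16 with IFNgamma (0-60 against 0-30 min). Quantile normalization gave 5 and 16 for IFNalpha at 150-180 and 0-60 against 0-30 min (1107 and 3270 of all tested genes called). It gave a median of 0.52 for IFNgamma at 150-180 against 30-60 min. The 1 call with IFNgamma at 0-60 min against mock became 0 with no filter, with only the arrays of the window, with no intensity trend and with array weights. Only the arrays of the windows gave 11, 7 and 9 at 150-180 against 0-30 min (mock, IFNalpha, IFNgamma), and no trend gave 1 with IFNgamma. Array weights, which also called more of all genes, gave 3 (IFNalpha, 30-60 min, 14.9% of all genes called) and 16 and 15 (150-180 min, 36.2% and 38.2%) against mock. They gave 18, 11 and 14 at 150-180 against 0-30 min (41.8%, 37.2% and 38.6%), and 4, 11 and 8 for the responses (6.78%, 21.2% and 19.8%). The cause of these moves was not tested.

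The replicate block within windows gave 1 and 4 against mock at 0-60 min and changed no other interferon count. Used across windows, where pairing by the number was not checked, it gave 5 with IFNalpha at 150-180 against 0-30 min (1097 of all tested genes called). Without mock 0-60 min array 1, a group not compared there, IFNalpha and IFNgamma gave 5 and 5 at 150-180 against 0-30 min. Of all tested genes 1508 and 1695 were then called. Without _x_at and _s_at probe sets mock and IFNgamma gave 1 and 1 there (911 and 1112 of all genes called). Rps24 with IFNalpha then turned to -0.024 (adjusted p = 0.96, limma). Both of these settings were chosen after seeing the data. Leaving out single arrays gave 2 to 3 (mock), 2 to 3 (IFNalpha) and 0 to 2 (IFNgamma) at 150-180 against 0-30 min, 15 to 25, 13 to 22 and 17 to 20 at 0-60 against 0-30 min, and 0 to 3 and 0 to 4 against mock at 0-60 min. For the other interferon comparisons and responses it gave 0 to 0. At 30-60 against 0-30 min the counts were 41 to 44, 38 to 40 and 38 to 41, and at 150-180 against 30-60 min 37 to 40, 33 to 37 and 35 to 38. Arrays give no counts, so precision is limited by 3 arrays per group and, for Rpl39, Rpl14, Rpl27a and Rps27, by signal nearer to background.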

Other observations

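The 31 ribosomal protein genes named only by several-symbol probe sets were left out of the counts, since such a probe set cannot be tied to 1 gene. Of the 110 several-symbol probe sets that name a ribosomal protein gene, 102 passed the filter. With limma's fit over all kept probe sets, 0 of the 102 were called against mock in any of the 8 interferon comparisons or in the 4 changes of a response. The shares of all kept probe sets called were also low, 0.33% to 4.59% against mock and 0.41% to 1.40% for the responses. From 0-30 to 30-60 min 81 were lower and 2 higher in mock (median -0.62), 75 and 2 with IFNalpha (-0.55) and 76 and 2 with IFNgamma (-0.59), beside -0.28, -0.30 and -0.31 over all kept probe sets, of which 58.0%, 57.2% and 59.5% were called in either direction. From 30-60 to 150-180 min 80, 74 and 74 were higher and 0, 1 and 1 lower, with medians of 0.73, 0.60 and 0.57, beside 0.29, 0.31 and 0.32 over all kept probe sets, of which 63.4%, 60.1% and 61.2% were called.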
